A study of Rattus norvegicus with 12 samples.

Results

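Fibrillar collagens and the enzymes that modify, fold, cut and cross-link them were followed in cultured rings of rat aorta. Of 40 genes listed by symbol, 33 had a probe set named for them alone on the array, and each was read from it, among 14324 genes tested. The other 7 (Col6a1, Col6a2, Col6a3, Col8a2, Col15a1, Col18a1 and Pcolce2) are not analysed here. All rings came from male Fisher 344 rats of 1 to 2 months and were kept until day 2 in serum-free medium, so strain, sex, age range and time are common to every group. The 4 groups of 3 arrays were fibrin gel with 10 ng/ml recombinant rat TNF-alpha (fibrin TNF), fibrin gel without it (fibrin control), collagen gel with the same TNF dose (collagen TNF) and collagen gel without it (collagen control). Every sample pooled 4 to 6 ring cultures, so an array is an average over rings. The sample titles call the 3 replicates of a group biological, but the labels do not say whether they came from different animals. The p-values therefore measure only the spread between these samples.

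Fibrillar collagens are ropes of procollagen chains wound around each other. Inside the cell, prolyl and lysyl hydroxylases modify the chains and chaperones hold them while they fold. Outside it, proteinases trim the ends, the trimmed molecules assemble into fibrils, and lysyl oxidases cross-link them. In the aorta, smooth muscle cells and adventitial fibroblasts are known to make most of this collagen. TNF is known, from work on fibroblasts, to lower type I collagen expression.

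The text below turns on P4ha1 and P4ha2, a pair of prolyl hydroxylase genes, and Loxl4, the only gene of the list that was higher in any comparison. It also turns on Fap, the gene with the largest matrix difference under TNF, and Col1a2, a type I collagen gene. Their promoters are shown for that reason. The promoter of Plod2, a lysyl hydroxylase gene that did not pass any test, is shown beside them. Of the 24 genes with a promoter matched, only P4ha2 and Plod2 hold the ACGTG motif named below. Each line holds the 250 bases before the gene's start in RefSeq (assembly GRCr8), 5′ to 3′ on the gene's strand. Capitals mark matches on either strand to 4 motifs. They are the CCAAT box (CCAAT), the GC box (GGGCGG), the TATA box (TATAAA) and the ACGTG form of the hypoxia response element core. The GCGTG form of that core was not searched. No match shown overlaps another.
P4ha1: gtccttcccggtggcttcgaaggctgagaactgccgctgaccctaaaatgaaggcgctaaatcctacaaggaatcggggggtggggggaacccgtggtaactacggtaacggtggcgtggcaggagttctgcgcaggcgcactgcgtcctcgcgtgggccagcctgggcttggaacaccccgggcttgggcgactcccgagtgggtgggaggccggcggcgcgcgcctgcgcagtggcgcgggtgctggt
P4ha2: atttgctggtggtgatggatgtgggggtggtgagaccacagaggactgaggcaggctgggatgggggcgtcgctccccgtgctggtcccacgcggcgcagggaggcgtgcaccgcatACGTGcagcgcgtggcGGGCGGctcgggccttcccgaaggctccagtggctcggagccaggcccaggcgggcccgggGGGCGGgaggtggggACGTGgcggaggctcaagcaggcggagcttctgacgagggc
Plod2: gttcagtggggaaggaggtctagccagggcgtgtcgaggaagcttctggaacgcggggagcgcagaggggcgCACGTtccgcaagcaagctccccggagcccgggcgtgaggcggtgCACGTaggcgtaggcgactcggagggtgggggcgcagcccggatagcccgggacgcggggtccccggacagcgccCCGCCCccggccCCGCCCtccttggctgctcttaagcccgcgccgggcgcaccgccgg
Loxl4: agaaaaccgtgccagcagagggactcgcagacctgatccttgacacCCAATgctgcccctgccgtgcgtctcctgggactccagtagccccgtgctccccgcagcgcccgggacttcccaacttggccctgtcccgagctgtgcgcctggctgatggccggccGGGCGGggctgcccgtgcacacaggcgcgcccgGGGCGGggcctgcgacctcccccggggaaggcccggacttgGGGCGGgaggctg
Fap: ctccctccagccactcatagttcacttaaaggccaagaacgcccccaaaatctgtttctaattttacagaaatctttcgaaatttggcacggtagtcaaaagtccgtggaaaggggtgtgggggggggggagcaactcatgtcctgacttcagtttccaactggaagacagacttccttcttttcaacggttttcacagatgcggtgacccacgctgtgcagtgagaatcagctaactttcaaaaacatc
Col1a2: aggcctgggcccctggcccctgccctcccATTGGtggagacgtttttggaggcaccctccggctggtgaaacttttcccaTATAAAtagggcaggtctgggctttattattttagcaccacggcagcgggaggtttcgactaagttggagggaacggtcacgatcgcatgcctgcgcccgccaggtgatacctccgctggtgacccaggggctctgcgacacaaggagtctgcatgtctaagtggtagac
The windows lie at chr20:27844796-27845045 (plus strand) for P4ha1, chr10:38743644-38743893 (plus) for P4ha2, chr8:101964068-101964317 (plus) for Plod2, chr1:251365578-251365827 (minus) for Loxl4, chr3:67616092-67616341 (minus) for Fap and chr4:33518307-33518556 (plus) for Col1a2.

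Promoters were matched for 24 of the 33 genes. The ACGTG form of the hypoxia core was in 2 of the 24, P4ha2 and Plod2, against 16.6% of 33469 promoters of the same length. In P4ha2 its matches began 133 and 41 bases before the start, and in Plod2, on the opposite strand, 178 and 133 bases before it. P4ha1 held none of the 4 motifs as searched in this window, nor did Fap, though both windows hold GCGTG or its reverse complement. GC boxes were in 16 of the 24 (30.5% of all promoters), CCAAT boxes in 6 (34.0%) and TATA boxes in 2 (12.9%). The TATA box letters began 170 bases before the start in Col1a2 and 163 bases before it in Crtap. A match describes letters and says nothing of binding.

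Array medians over all 27342 probe sets lay between 5.89 and 5.98 (log2), slightly lower on the fibrin arrays (5.89 to 5.93) than on the collagen arrays (5.94 to 5.98). The scale was read as log2 from the values, and the labels do not state how the values were normalized. Of 8 smooth muscle markers 7 were measured (Acta2 is not analysed here). Myh11, the smooth muscle myosin heavy chain, lay at 9.97 to 10.25 (log2) on fibrin TNF and 10.17 to 10.60 on fibrin control arrays. It lay at 10.30 to 10.41 on collagen TNF and 10.62 to 11.02 on collagen control arrays. With TNF in fibrin 6 of the 7 marker differences were negative and 1 positive (Des). A summed level is the log2 of the sum of linear values. That of the 7 lay at 11.32 to 11.50 on fibrin TNF and 11.39 to 11.74 on fibrin control arrays. It was 11.47 to 11.60 on collagen TNF and 11.77 to 12.11 on collagen control arrays. Summed levels of 8 fibroblast markers lay at 14.43 to 14.51 on fibrin TNF and 14.58 to 14.63 on fibrin control arrays. They lay at 14.63 to 14.69 on collagen TNF and 14.65 to 14.74 on collagen control arrays. Such sums mostly follow their brightest genes. For the fibroblast list these were Dcn and Lum, with means of 13.47 and 12.66 on fibrin TNF arrays, against 7.10 for Cygb. Dcn and Lum are also among the other collagen pathway genes counted below. In the macrophage sums given below, Cd14 was the brightest gene (mean 11.70 on fibrin TNF arrays). In whole rings, fewer cells of a type and less RNA per cell cannot be told apart.

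Adding TNF in fibrin lowered 4 of the 33 genes and raised 0, at an adjusted p under 0.05 (limma, Benjamini-Hochberg over all 14324 genes). Over all genes, 1.47% were lower and 1.65% higher. The 4 were the collagen chains Col3a1, Col12a1 and Col14a1 and the procollagen processing enhancer Pcolce. Over the whole list, the 4 called genes included, 27 of 33 differences were negative (46.2% of all genes were) and the median log2 difference was -0.16, against 0.01 over all genes.

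Col12a1 encodes type XII collagen, which decorates the surface of fibrils. Its level was 6.11, 6.75 and 6.32 (log2) on the fibrin TNF arrays, against 7.28, 7.29 and 7.27 on the fibrin control arrays. All TNF arrays lay below all controls, and the controls were nearly level. The log2 difference was -0.89 ± 0.14 (SE; limma adjusted p = 0.00344), a 1.85-fold lower level with TNF.

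Col14a1 encodes type XIV collagen, a relative of type XII that also sits on fibrils. It was at 7.75, 8.28 and 8.01 (log2) on fibrin TNF arrays, against 8.71, 8.93 and 8.85 on fibrin control arrays. The groups did not overlap, and the log2 difference was -0.82 ± 0.12 (SE; limma adjusted p = 0.00215).

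Col3a1, the single chain of type III collagen, which runs with type I in the vessel wall, was at 11.28, 11.65 and 11.69 (log2) with TNF in fibrin, against 12.05, 12.32 and 12.36 without. The groups did not overlap, and the log2 difference was -0.70 ± 0.12 (SE; limma adjusted p = 0.00755), a 1.62-fold lower level. Pcolce, whose product speeds the removal of the procollagen C-terminal end, was at 9.73, 9.72 and 9.64 with TNF, against 10.01, 10.17 and 10.20 without (-0.43 ± 0.10, adjusted p = 0.0325). Its groups did not overlap either, but the call was lost without any one of fibrin control replicates 2 and 3 and fibrin TNF replicates 1, 2 and 3 (adjusted p 0.0570 to 0.134) and with array weights (0.0521).

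Arrays of the same replicate number deviated together within a gel, and blocking on replicate number inside each gel widened this group from 4 to 9 genes lower and 0 higher, where 2.05% of all genes were lower. The 5 added were Col1a1 and Col1a2, the chains of type I collagen, Col5a1 of type V collagen, which starts type I fibrils, and P4ha1 and P4ha2, catalytic subunits of prolyl 4-hydroxylase. Col1a1 lay at 12.27, 12.54 and 12.65 (log2) with TNF in fibrin, against 12.67, 12.98 and 12.98 without, a log2 difference of -0.39 with limma adjusted p = 0.136 unblocked and 0.0392 blocked. Col1a2 lay at 12.60, 12.78 and 12.82 with TNF, against 12.96, 13.07 and 13.10 without (-0.30, adjusted p = 0.107 unblocked and 0.0484 blocked). For both chains every TNF array was below every control array, by a narrow margin for Col1a1. Col5a1 differed by -0.31 (adjusted p = 0.0728 unblocked and 0.0304 blocked).

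P4ha2 was at 9.13, 9.41 and 9.52 (log2) on fibrin TNF arrays, against 9.64, 9.77 and 10.19 on fibrin control arrays, and P4ha1 was at 10.67, 10.80 and 10.88, against 10.94, 11.16 and 11.30. Neither gene's groups overlapped. The log2 differences were -0.51 for P4ha2 (adjusted p = 0.0861 unblocked and 0.0129 blocked) and -0.35 for P4ha1 (adjusted p = 0.114 unblocked and 0.0209 blocked). P4hb, protein disulfide isomerase and the other subunit of the same enzyme, differed by -0.01 (95% interval -0.15 to 0.12).

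In all, 12 of the 33 genes did not overlap between TNF and control in fibrin with TNF lower, and 1 with TNF higher, Loxl1, a lysyl oxidase needed for elastic fibres (0.24, adjusted p = 0.0968). Over all genes 7.97% and 10.2% did so. Fap, a membrane protease of activated fibroblasts that clips collagen fragments, differed by -0.56 (adjusted p = 0.133). The 3 lysyl hydroxylases lay between -0.18 and -0.01, and the collagen chaperone Serpinh1 at 0.00 (95% interval -0.12 to 0.13). Of the 8 fibroblast markers 2 fell (Cygb and Dpt) and 0 rose, and their summed level, 14.43 to 14.51 with TNF against 14.58 to 14.63 without, did not overlap. Their part in the result was not tested.

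**Figure D1:**
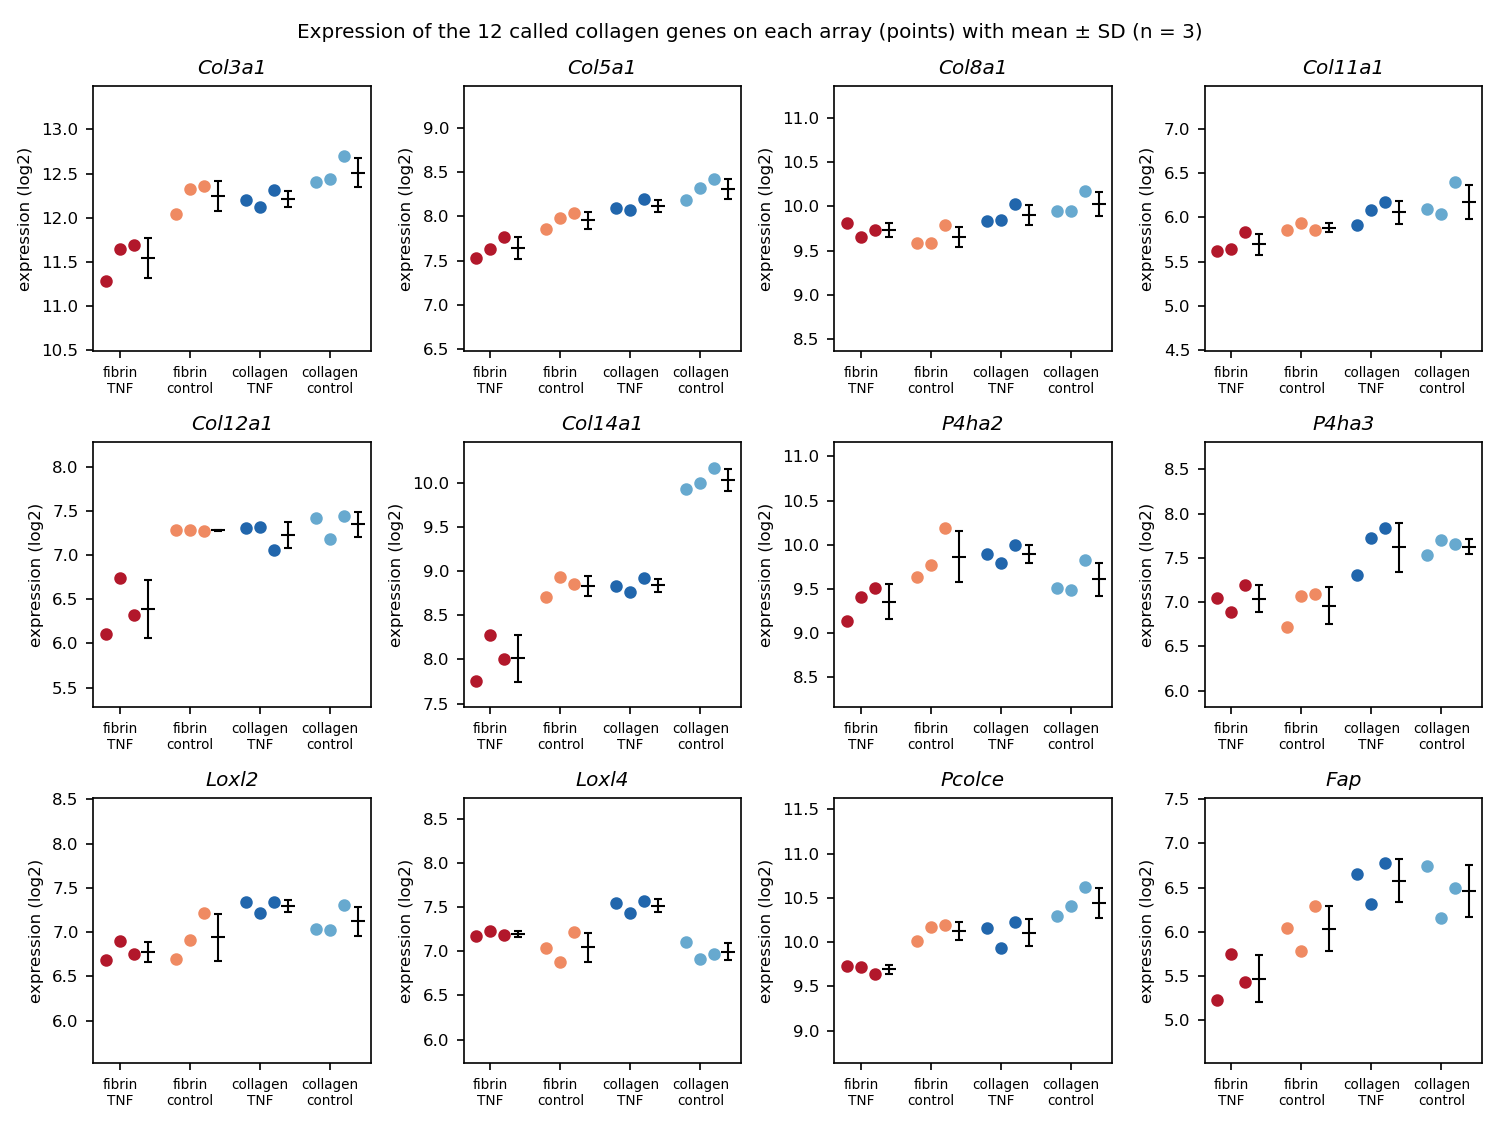
Expression (log2, vertical axis, each panel spanning 3 units) of the 12 collagen genes that passed in at least 1 comparison, for fibrin TNF, fibrin control, collagen TNF and collagen control. Points are single arrays, and the black marks give the mean ± SD (n = 3). Col14a1 sits highest on collagen control arrays (9.92 to 10.17) and lowest on fibrin TNF arrays (7.75 to 8.28).

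In collagen the same TNF dose changed 2 of the 33 genes, 1 lower and 1 higher, where 3.10% of all genes were lower and 3.27% higher. The share is near that of all genes. The median log2 difference of the 33 was -0.01 (0.00 over all genes), with 18 negative and 15 positive.

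The gene that fell was Col14a1. It was at 8.83, 8.76 and 8.92 (log2) on collagen TNF arrays, against 9.92, 10.00 and 10.17 on collagen control arrays. The groups stood about 1 log2 unit apart, and the log2 difference was -1.19 ± 0.12 (SE; limma adjusted p = 5.97e-05), a 2.29-fold lower level with TNF. Without a replicate block, Col14a1 was the only one of the 33 genes that passed with TNF in both gels.

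The gene that rose was Loxl4, a lysyl oxidase-like enzyme. It was at 7.55, 7.43 and 7.57 (log2) on collagen TNF arrays, against 7.10, 6.91 and 6.96 on collagen control arrays. The groups did not overlap, and the log2 difference was 0.52 ± 0.09 (SE; limma adjusted p = 0.00279). In fibrin its difference was 0.15 (adjusted p = 0.445), and the difference between gels did not pass (-0.37, adjusted p = 0.201). Lox, the main lysyl oxidase, was at 11.09, 11.00 and 11.13 on collagen TNF arrays, against 10.63, 10.85 and 10.93 on collagen control arrays (0.27, adjusted p = 0.144).

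P3h2, a prolyl 3-hydroxylase, was at 6.40, 6.55 and 6.58 (log2) on collagen TNF arrays, against 6.80, 7.22 and 7.14 on collagen control arrays. These groups did not overlap, and the log2 difference of -0.55 had limma adjusted p = 0.0530 unblocked and 0.0363 blocked by replicate number. Col3a1 lay at 12.20, 12.13 and 12.31 with TNF, against 12.40, 12.44 and 12.70 without (-0.30, adjusted p = 0.208 unblocked and 0.0285 blocked), so that with the block it passed in both gels, like Col14a1. With the block, 3 genes were thus lower and 1 higher, against 3.52% and 3.59% of all genes. Without collagen control replicate 1 there were also 3 lower, Col14a1, P3h2 and Pcolce. With all arrays Pcolce differed by -0.33 in collagen (limma adjusted p = 0.0688), and its groups did not overlap.

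Type I collagen did not pass in collagen gel, with log2 differences of -0.09 for Col1a1 (95% interval -0.37 to 0.18) and -0.08 for Col1a2 (-0.28 to 0.11). Of the 33 genes, 5 were higher and 7 lower on all TNF arrays than on all controls, where 12.7% and 13.8% of all genes were. Fibroblast markers moved in both directions, with 1 of 8 higher (Pdgfra) and 3 lower (Cygb, Dpt and Scara5), and of 7 smooth muscle markers 3 were lower and 0 higher. Their part in the result was not tested.

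**Figure D2:**
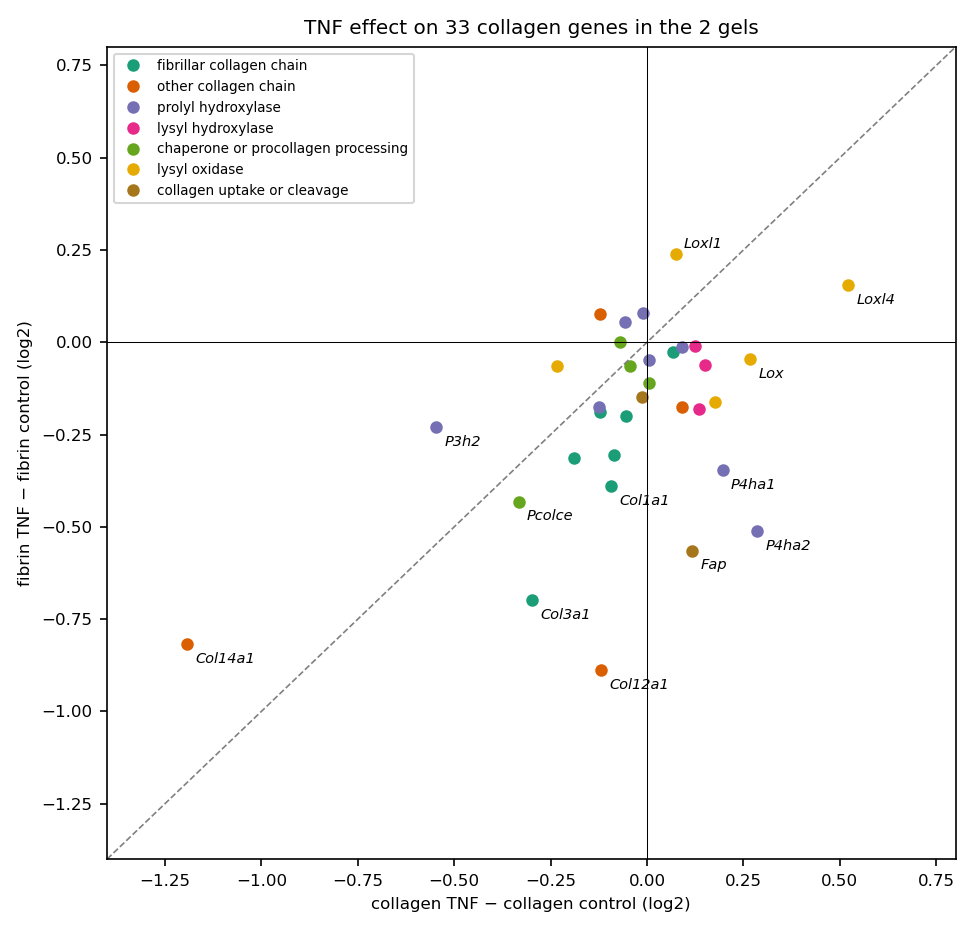
TNF effect in fibrin (vertical axis) against TNF effect in collagen (horizontal axis), both as log2 differences, for the 33 collagen genes coloured by role. Points under the dashed line of equal effects have a lower TNF effect in fibrin, as 25 of the 33 do, with P4ha2, Fap and Col12a1 among the farthest from it.

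The difference of the TNF effect between gels was then tested, as fibrin minus collagen. None of the 33 genes passed (limma, lowest adjusted p = 0.0858), where 0.866% of all genes had a lower and 0.370% a higher effect in fibrin. At an unadjusted p under 0.05, 9 were lower and 1 higher, where 13.1% of all genes reached that threshold in either direction. The median was -0.12 (0.01 over all genes), and 25 of 33 were negative, against 48.3% of all genes.

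The largest difference was that of P4ha2. Its log2 difference with TNF was -0.51 in fibrin and 0.29 in collagen, where TNF arrays were at 9.89, 9.79 and 10.00, against 9.51, 9.49 and 9.82 on control arrays. The difference was -0.80 ± 0.20 (SE; limma adjusted p = 0.0907 unblocked and 0.0172 blocked by replicate number). P4ha1 had a difference of -0.54 ± 0.15 (adjusted p = 0.119 unblocked and 0.0275 blocked). It was at 11.03, 11.12 and 11.25 on collagen TNF arrays, against 10.79, 10.91 and 11.10 on collagen control arrays, which overlap. With the block, P4ha1 and P4ha2 were the 2 genes of the list that passed, where 1.05% of all genes had a lower effect in fibrin. P4ha3, the other catalytic subunit, had a difference of 0.09 (95% interval -0.34 to 0.51).

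Col12a1 was second in size after P4ha2, at -0.77 ± 0.19 (SE), and had the lowest limma adjusted p of the 33, 0.0858. Fap was next in size, at -0.68 ± 0.26 (adjusted p = 0.273). In collagen Col12a1 was at 7.31, 7.32 and 7.05 (log2) with TNF, against 7.42, 7.18 and 7.44 without, and these groups overlap. Without fibrin TNF replicate 2, the highest fibrin TNF array for Col12a1, the Col12a1 difference was -0.94 (limma adjusted p = 0.00850). Col12a1 was then the 1 gene of the list that passed. Over 20 alternative runs, the Col12a1 difference passed in 3. In signs, 13 of the 33 genes were negative in fibrin and positive in collagen, 14 negative in both, 2 positive in both and 4 positive in fibrin and negative in collagen. All 3 lysyl hydroxylases (Plod1, Plod2 and Plod3) were among the 13, at -0.18 to -0.01 in fibrin and 0.12 to 0.15 in collagen, and none of these 6 differences passed.

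With TNF in both gels, fibrin was compared with collagen. Here 11 of the 33 genes were lower in fibrin and 0 higher, against 3.64% and 4.55% of all genes. They were the fibrillar chains Col3a1, Col5a1 and Col11a1, the fibril-associated Col12a1 and Col14a1, the prolyl hydroxylase subunits P4ha2 and P4ha3, the lysyl oxidases Loxl2 and Loxl4, Pcolce and Fap. The median log2 difference was -0.17 (0.00 over all genes), and 30 of 33 were negative, against 51.1% of all genes. The comparison shares its fibrin TNF arrays with the TNF comparison in fibrin and its collagen TNF arrays with that in collagen.

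Fap had the largest difference. It was at 5.23, 5.76 and 5.43 (log2) on fibrin TNF arrays, against 6.65, 6.31 and 6.78 on collagen TNF arrays. Every fibrin array lay below every collagen array, and the log2 difference was -1.11 ± 0.18 (SE; limma adjusted p = 0.00198), a 2.15-fold lower level in fibrin. All fibrin TNF values of Fap lay below the medians of their arrays (5.91 to 5.93). Mrc2, an endocytic receptor that takes collagen into the cell, differed by -0.09 (95% interval -0.29 to 0.10).

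Among the chains, Col12a1 differed by -0.84 ± 0.14 (SE; limma adjusted p = 0.00199), from the arrays given above, and Col14a1 by -0.82 ± 0.12 (adjusted p = 7.05e-04). Col3a1 was 1.59-fold lower in fibrin (log2 difference -0.67 ± 0.12, adjusted p = 0.00418). Col5a1 was at 7.53, 7.64 and 7.77 on fibrin TNF arrays, against 8.09, 8.07 and 8.19 on collagen TNF arrays (-0.48 ± 0.09, adjusted p = 0.00369). Col11a1, a chain of type XI collagen and the nearest relative of type V, was at 5.61, 5.64 and 5.83, against 5.91, 6.08 and 6.17 (-0.36 ± 0.10, adjusted p = 0.0475). None of these 5 genes overlapped between the gels. All fibrin TNF values of Col11a1 lay below the medians of their arrays (5.91 to 5.93). The type I chains did not pass, at -0.21 for Col1a1 (adjusted p = 0.374) and -0.24 for Col1a2 (adjusted p = 0.148).

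Among the enzymes, P4ha3 was at 7.04, 6.89 and 7.19 (log2) on fibrin TNF arrays, against 7.30, 7.72 and 7.83 on collagen TNF arrays, a log2 difference of -0.58 ± 0.14 (limma adjusted p = 0.0218). P4ha2 differed by -0.54 ± 0.14 (adjusted p = 0.0374). Loxl2, whose product also cross-links basement membrane collagen, was at 6.68, 6.90 and 6.75, against 7.34, 7.22 and 7.34 (-0.52 ± 0.12, adjusted p = 0.0210). Loxl4, which TNF raised in collagen, was at 7.18, 7.23 and 7.18, against the 7.43 to 7.57 of collagen TNF arrays (-0.32 ± 0.09, adjusted p = 0.0426). The processing enhancer Pcolce, not itself an enzyme, was at 9.64 to 9.73, against 10.15, 9.94 and 10.23 (-0.41 ± 0.10, adjusted p = 0.0216). All 5 genes were separate by gel.

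In total 20 of the 33 genes were lower on all fibrin TNF arrays than on all collagen TNF arrays and 0 were higher, where 12.9% and 14.8% of all genes were. Among the 13 that overlapped were genes of the folding machinery, Serpinh1 at -0.04, P4hb at -0.06 and P3h1 at 0.00. The count of 11 rested on calls near the threshold. It fell to 7 without collagen TNF replicate 1 or 2 or fibrin TNF replicate 2 and to 5 without collagen TNF replicate 3 or fibrin TNF replicate 1. Col3a1, Col5a1, Col12a1, Col14a1 and Fap passed in every alternative run. Fibroblast markers were lower in fibrin for 3 of 8 (Cygb, Pdgfra and Lum) and higher for 0, with summed levels of 14.43 to 14.51 against 14.63 to 14.69, and macrophage markers for 5 of 8, with summed levels of 12.77 to 12.84 against 12.98 to 13.32. Of 7 smooth muscle markers none passed, and their summed levels, 11.32 to 11.50 against 11.47 to 11.60, overlapped. Their part in the result was not tested.

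**Figure D3:**
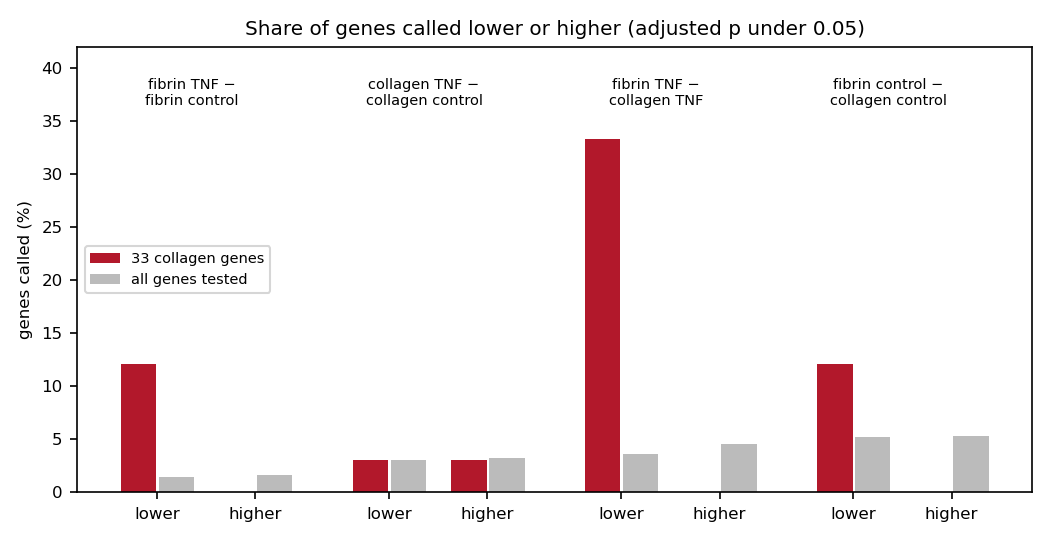
Percent of genes lower or higher at an adjusted p under 0.05 (vertical axis) in 4 comparisons, for the 33 collagen genes (red) and all 14324 genes tested (grey). The red bar for genes lower in fibrin TNF than in collagen TNF stands at 33.3% beside 3.64% for all genes, and red bars for genes higher are at 0 except for TNF in collagen.

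Without TNF, 4 of the 33 genes were lower in fibrin than in collagen and 0 higher, where 5.19% of all genes were lower and 5.35% higher. The median log2 difference was -0.10 (-0.01 over all genes), and 20 of 33 were negative (52.4% of all genes).

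Col14a1 again differed most, at 8.71, 8.93 and 8.85 (log2) on fibrin control arrays, against 9.92, 10.00 and 10.17 on collagen control arrays. The log2 difference was -1.20 ± 0.12 (SE; limma adjusted p = 2.22e-05), a 2.30-fold lower level in fibrin. These collagen control arrays also serve the TNF comparison in collagen. The 4 group means of Col14a1 were 8.01 ± 0.26 on fibrin TNF, 8.83 ± 0.11 on fibrin control, 8.84 ± 0.08 on collagen TNF and 10.03 ± 0.13 on collagen control arrays (SD, n = 3 each). Untreated fibrin and TNF-treated collagen thus stood at about the same level, within their spread.

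P4ha3 was at 6.72, 7.07 and 7.09 (log2) on fibrin control arrays, against 7.53, 7.70 and 7.66 on collagen control arrays, with no overlap (-0.67 ± 0.14 SE; limma adjusted p = 0.00755). With Col14a1 and Col5a1 it was 1 of 3 genes lower in fibrin both with and without TNF. The log2 difference of P4ha3 with TNF was 0.08 in fibrin and -0.01 in collagen.

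Col8a1, a short-chain collagen of vascular cells, was at 9.59, 9.59 and 9.78 (log2) on fibrin control arrays, against 9.95, 9.94 and 10.18 on collagen control arrays (-0.37 ± 0.09 SE; limma adjusted p = 0.0193). Col5a1 was at 7.85, 7.98 and 8.04, against 8.19, 8.32 and 8.42 (-0.35 ± 0.09, adjusted p = 0.0190). Both sets of arrays were separate, but the call of Col5a1 was lost without collagen control replicate 2 or 3 or fibrin control replicate 1 and after median centring (adjusted p 0.0503 to 0.0806). That of Col8a1 was lost without collagen control replicate 3 or fibrin control replicate 1 or 2 (adjusted p 0.0734 to 0.0822). The count of 4 was 2 without collagen control replicate 3 or fibrin control replicate 1.

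Type I collagen did not pass between untreated gels, with Col1a1 at 0.09 (95% interval -0.18 to 0.36) and Col1a2 at -0.02 (-0.21 to 0.18). Across the 33 genes, 9 were lower and 2 higher (Col16a1 and Plod3) on all fibrin control arrays than on all collagen control arrays, where 15.0% and 14.3% of all genes were. Smooth muscle markers were lower in fibrin for 4 of 7, fibroblast markers for 3 of 8 and macrophage markers for 5 of 8, with 0 higher in each list. Summed fibroblast markers were at 14.58 to 14.63 in fibrin control, against 14.65 to 14.74 in collagen control. Their part in the result was not tested.

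**Figure D4:**
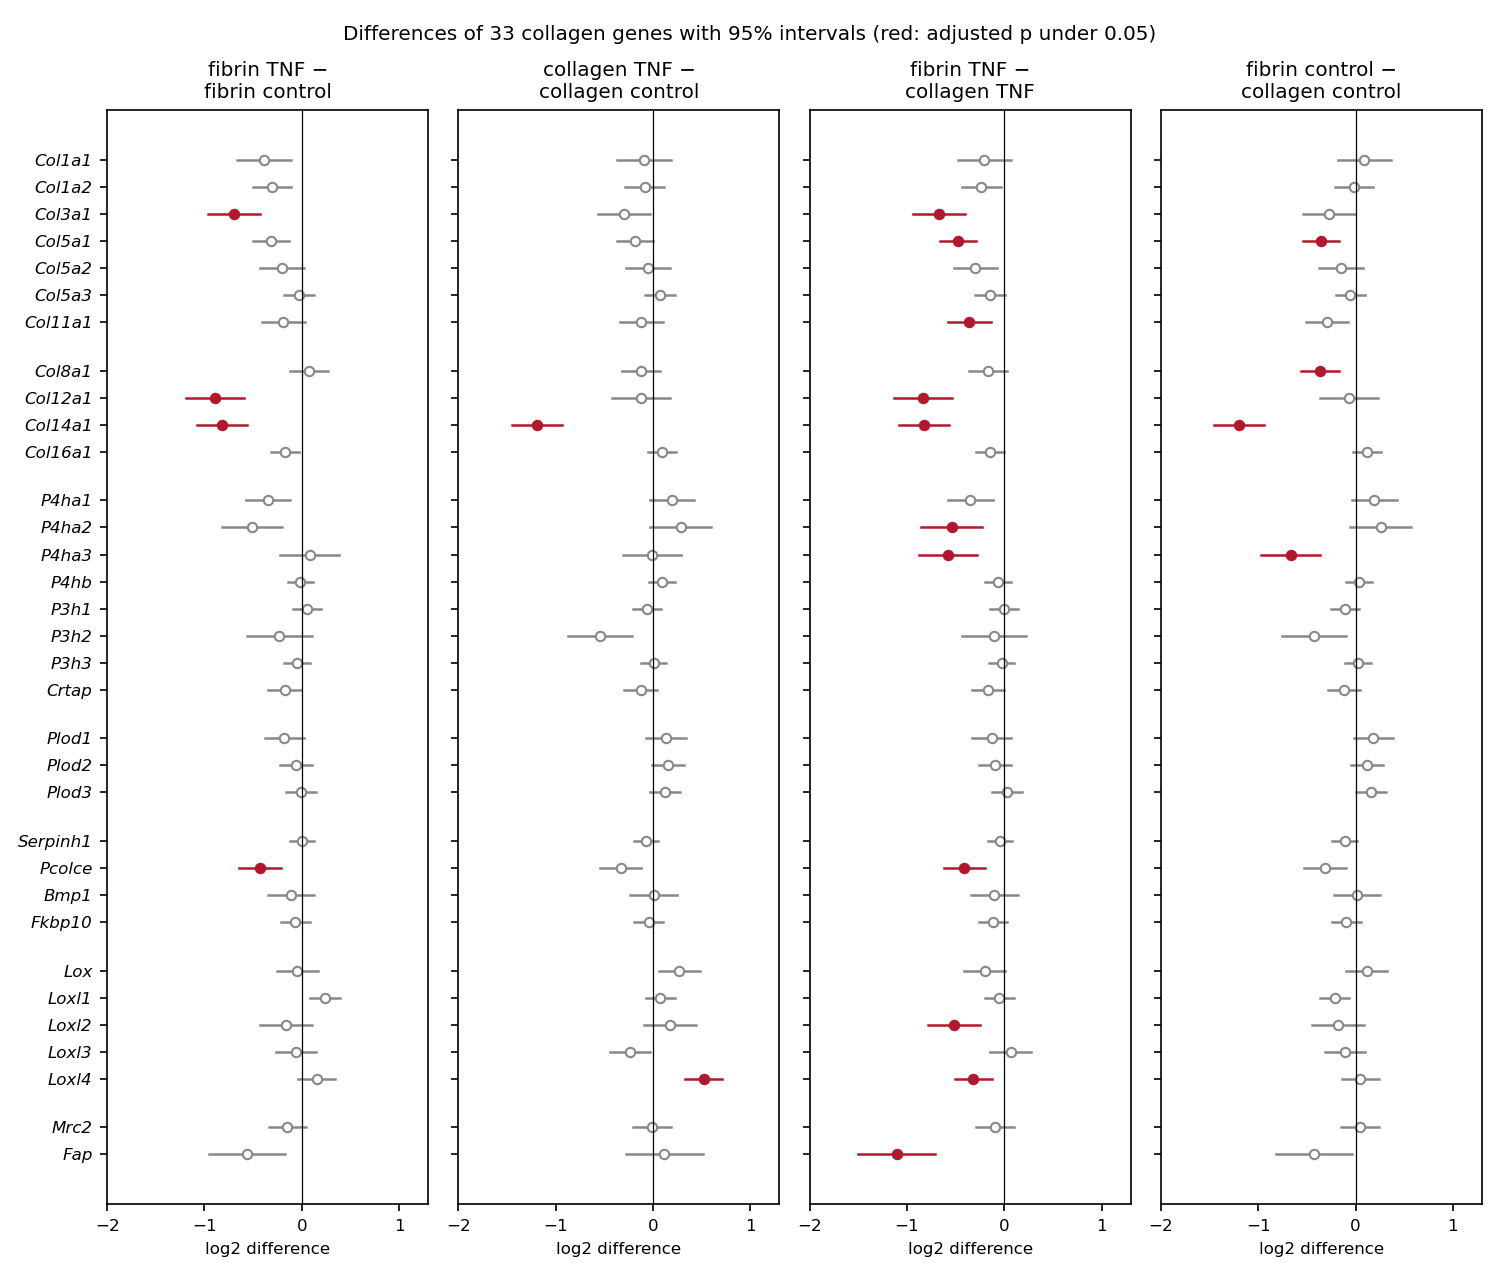
Log2 differences (points) with 95% intervals (lines) of the 33 collagen genes in 4 comparisons, grouped by role from fibrillar chains at the top to collagen uptake and cleavage at the bottom. Filled red points passed at an adjusted p under 0.05. The third panel, fibrin TNF minus collagen TNF, holds 11 red points, all left of 0.

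Seen by role, the calls fell on chains, on a few enzymes and on Pcolce. Of 7 fibrillar chains, 0 passed with TNF in collagen, 1 with TNF in fibrin, 1 for the gel without TNF and 3 for the gel with TNF, all lower. The 7 differences of the TNF effect were all negative and none passed. Of the 4 other chains measured, Col14a1 passed in every 2-group comparison, and Col16a1, a minor fibril-associated chain, in none. The 8 genes grouped as prolyl hydroxylases included Crtap, a partner of a prolyl 3-hydroxylase. Among the 8, the 3-hydroxylases P3h1 and P3h3 and the subunit P4hb stayed within 0.12 (log2) of 0 in all 4 between-group comparisons. So did Fkbp10, a chaperone with prolyl isomerase activity, and Bmp1, the main procollagen C-proteinase. Of 5 lysyl oxidases, only Loxl2 and Loxl4 passed in any comparison without the block.

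The unblocked fit called 21 of the 33 genes in none of the 4 between-group comparisons, and for 13 of these every log2 difference lay within 0.2 of 0. The steadiest was P3h3, a relative of the prolyl 3-hydroxylases, which spanned 9.78 to 9.90 (log2) over all 12 arrays. Serpinh1 spanned 12.07 to 12.24, and P4hb 12.08 to 12.26. The lysyl hydroxylases varied more, Plod1 from 10.50 to 10.91, Plod2 from 11.36 to 11.69 and Plod3 from 9.79 to 10.13. Crtap, which works in a complex with a prolyl 3-hydroxylase, spanned 10.27 to 10.79, and its 4 differences were all negative, between -0.17 and -0.12. Among the chains, Col5a2, the partner of Col5a1 in type V collagen, spanned 9.92 to 10.62 with differences of -0.30 to -0.05, while Col5a3, another type V chain, spanned 6.70 to 6.95. Loxl3, a further lysyl oxidase, spanned 8.44 to 8.91, and its lowest difference was -0.23, with TNF in collagen. P3h2 had the widest span of the 21, from 6.26 to 7.22.

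Of 48 other genes of the collagen pathway, such as further chains, receptors, procollagen proteinases, collagenases and growth factors, 43 were measured. With TNF in fibrin 1 rose and 1 fell, where 1.65% of all genes rose and 1.47% fell. With TNF in collagen 4 rose and 1 fell, against 3.27% and 3.10% of all genes. With TNF present 4 were higher and 4 lower in fibrin (4.55% and 3.64% of all genes), and without it 3 were higher and 3 lower (5.35% and 5.19%). Unlike the 33 genes, this list held higher calls in all 4 comparisons. Whether the lists differ was not tested.

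Itga2, the collagen-binding integrin alpha-2 subunit, rose with TNF in both gels. It was at 9.76, 9.64 and 10.04 (log2) on fibrin TNF arrays, against 8.81, 8.70 and 8.61 on fibrin control arrays (1.11 ± 0.12 SE; limma adjusted p = 4.15e-04), and at 9.12, 9.17 and 9.13 on collagen TNF arrays, against 8.08, 7.72 and 7.66 on collagen control arrays (1.32 ± 0.12, adjusted p = 2.41e-05). The 4 groups were separate, highest in fibrin TNF and lowest in collagen control.

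Tll1 encodes a proteinase of the same family as Bmp1. It was at 8.51, 7.95 and 7.79 (log2) on fibrin control arrays, against 6.06, 5.13 and 5.75 on collagen control arrays (2.43 ± 0.23 SE; limma adjusted p = 1.56e-05). With TNF in collagen it was at 7.36, 7.32 and 7.13, above the same controls (1.62 ± 0.23, adjusted p = 7.91e-04), while Bmp1 differed by 0.01 there and by 0.02 between untreated gels.

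Mmp13, an interstitial collagenase, was at 11.17, 11.62 and 11.19 (log2) on fibrin TNF arrays, against 11.36, 10.68 and 10.46 on fibrin control arrays (0.49, limma adjusted p = 0.456). In collagen it was at 12.27, 12.07 and 11.97 on TNF arrays, against 10.69, 9.41 and 9.97 on control arrays (2.08 ± 0.28 SE; adjusted p = 6.22e-04). The fibrin groups overlapped and the collagen groups did not, but the difference of these effects did not pass (-1.59, adjusted p = 0.0860). Tgfb3, a growth factor that drives collagen production in fibroblasts, fell with TNF in fibrin (-0.81, adjusted p = 0.00901) and in collagen (-0.61, adjusted p = 0.0273). Col4a1, a basement membrane chain, had log2 differences between -0.07 and 0.02 in the 4 comparisons, and none passed.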

How the data were processed

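Total RNA (200 ng) from 12 samples was labelled for an Affymetrix whole-transcript microarray (labels' protocols). The values the authors deposited run between 1.44 and 14.07 and were taken as log2 expression. Their normalization is not stated in the labels, and limma is named in the submitters' processing notes. No scan dates are given, so no batch was tested, and the number of arrays limits the precision (median SE of a difference 0.09, log2).

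Probe sets naming 1 gene (15097 of 27342) were kept, the one of highest mean per gene. The model was fitted in limma 3.58.1 under R 4.3.3 (1 mean per group, all 12 arrays, two-sided), and p-values were adjusted by Benjamini-Hochberg over 14324 genes. Groups came from sample titles. The tissue label, which mentions collagen for all samples, was not used. Genes and lists were chosen with earlier results of these data known. Any of the 33 genes, and up to 4 other pathway genes per comparison and direction, could be named. The model was tested on simulated data with known changes in 200 genes, for TNF in collagen. It recovered 62% of changes of 0.5 (log2) and 97% of changes of 1, with 6.47% false among calls. Smaller changes were not simulated.

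Arrays of equal replicate number had correlated deviations from their group means, 0.25, 0.14 and 0.16 between the fibrin groups and 0.13, 0.14 and 0.14 between the collagen groups. Since every value was over 0.1, samples of a gel were treated as paired by number in the blocked fit. That fit is given where it changes a call. The sample titles give replicate numbers but no pairs, so the blocked p-values rest on this choice, made from the same arrays. Between gels the correlations were 0.05, 0.03 and 0.14 with TNF and 0.23, 0.08 and 0.13 without it, and no pairs were formed.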

Additional observations from a re-analysis of the deposited data

Results flagged for a closer look

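Col16a1, which encodes a minor fibril-associated collagen chain, lay lower on all fibrin TNF arrays than on all fibrin control arrays, and higher on all collagen TNF arrays than on all collagen control arrays, but neither difference passed (limma adjusted p = 0.224 in fibrin and 0.537 in collagen). It was at 7.45, 7.59 and 7.44 (log2) on fibrin TNF arrays, against 7.63, 7.69 and 7.68 on fibrin control arrays. It was at 7.61, 7.64 and 7.68 on collagen TNF arrays, against 7.47, 7.60 and 7.59 on collagen control arrays. The TNF effect in fibrin minus that in collagen was -0.26 ± 0.09 (SE), and the test of this difference did not pass (limma adjusted p = 0.239).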

How the results depend on the processing

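Of 21 gene calls, 12 held in every alternative, 9 were lost in at least 1 and 0 changed sign. The count of genes lower with TNF in collagen (1) was 2 after quantile normalization, with only the groups compared and with a replicate block across the 12 arrays, and 3 when the dimmest 33.3% of genes were left out, with a trended and robust prior, with array weights and with the replicate block within each matrix. The count lower with TNF in fibrin (4) was 7 with the trended and robust prior and 9 with either replicate block. The count higher there (0) was 1 when these genes were left out, with the trended and robust prior and with the replicate block across the 12 arrays, each time Loxl1. The count with a lower TNF effect in fibrin (0) was 1 when these genes were left out and 2 with the trended and robust prior or with either replicate block. The count lower in fibrin without TNF (4) was 7 with the replicate block across the 12 arrays. The blocks changed no other count by over 1.5 times. Leaving out 1 array at a time gave 1 to 3 lower with TNF in collagen, 3 to 6 lower with TNF in fibrin, 5 to 8 lower in fibrin with TNF, 2 to 6 lower in fibrin without it and 0 to 1 with a lower TNF effect in fibrin. It left the counts higher at 0 and at 1 for TNF in collagen. Median centring moved the median of all genes by 0.06 (log2) between untreated gels and by 0.04 between treated gels, and the split of calls over all genes between untreated gels to 1217 higher and 474 lower, against 767 and 743.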
